A study of Mus musculus with 6 samples.

Results

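Transcripts of the IgE receptor chains, of the receptor KIT and its ligand, of lineage transcription factors of mast cells and of the histamine-forming enzyme were followed in subcutaneous tumours of lactating and control mice. The 8 genes were Fcer1a, Ms4a2, Fcer1g, Kit, Kitl, Gata2, Mitf and Hdc, out of 18194 genes with a single-gene probe set on the array. They are the receptor, growth factor, lineage and histamine genes of mast cells, and the set was selected on the differences in signal between lactation and control on these same arrays. Their values are therefore a description and were given no test. Every probe set that the platform annotation assigns to exactly 1 of these genes was read, 16 in all.

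Tumours were grown from KPC1199 cells, a mouse line of pancreatic ductal adenocarcinoma, injected under the skin of the right back. 3 tumours came from lactating mice, injected while pregnant or once nursing had begun, and 3 came from control mice of the same age that received the same cells. All were taken 20 days after injection, and the labels call the tumours of a group biological replicates. The labels used here give neither strain nor age, and leave unstated whether a lactation mouse was pregnant or nursing at injection. All tumours stem from 1 cell line. Total RNA was hybridised to 1 Affymetrix array per tumour, and the deposited values are MAS5 signals, linear intensities per probe set. Median signals were 100.6, 111.0 and 108.6 on the lactation arrays and 105.8, 103.5 and 99.3 on the control arrays, and the number of arrays limits the precision.

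Mast cells carry on their surface the high-affinity IgE receptor, in which an alpha chain binds the antibody, a beta chain amplifies the signal and a pair of gamma chains transmits it. In the mouse this receptor is found mainly on mast cells and basophils, while the gamma chain also serves Fc receptors of macrophages, neutrophils and natural killer cells. Mast cells depend on stem cell factor, the product of Kitl, which is made by stromal, endothelial and epithelial cells and acts through the receptor tyrosine kinase KIT. GATA2 and MITF are transcription factors needed for mast cell development and for the expression of many mast cell genes, and histidine decarboxylase, the product of Hdc, forms histamine.

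To show the start regions of the receptor chains and of the gene with the opposite difference, windows from 250 bases before to 50 bases after the annotated start are printed 5′ to 3′ from RefSeq (build GRCm38.p6). All 8 genes matched a window by symbol, with 12 windows in all. Capitals mark matches on either strand to the GATA words, which are GATAA or GATAG preceded by A or T. The window of Fcer1a is chr1:173227180-173227479 on the minus strand, that of Ms4a2 chr19:11623670-11623969 on the minus strand, that of Fcer1g chr1:171234300-171234599 on the minus strand and that of Hdc chr2:126618629-126618928 on the minus strand.
Fcer1a: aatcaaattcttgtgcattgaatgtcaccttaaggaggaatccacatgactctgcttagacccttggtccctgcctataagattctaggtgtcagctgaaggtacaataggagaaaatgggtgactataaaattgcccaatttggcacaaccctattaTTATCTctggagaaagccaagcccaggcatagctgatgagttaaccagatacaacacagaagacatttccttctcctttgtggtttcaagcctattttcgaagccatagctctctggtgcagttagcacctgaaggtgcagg
Ms4a2: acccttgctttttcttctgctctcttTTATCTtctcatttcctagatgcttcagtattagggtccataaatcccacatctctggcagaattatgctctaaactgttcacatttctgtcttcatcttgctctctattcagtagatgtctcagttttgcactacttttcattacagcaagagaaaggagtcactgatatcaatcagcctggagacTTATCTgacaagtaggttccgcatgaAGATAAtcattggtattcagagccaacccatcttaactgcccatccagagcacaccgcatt
Fcer1g: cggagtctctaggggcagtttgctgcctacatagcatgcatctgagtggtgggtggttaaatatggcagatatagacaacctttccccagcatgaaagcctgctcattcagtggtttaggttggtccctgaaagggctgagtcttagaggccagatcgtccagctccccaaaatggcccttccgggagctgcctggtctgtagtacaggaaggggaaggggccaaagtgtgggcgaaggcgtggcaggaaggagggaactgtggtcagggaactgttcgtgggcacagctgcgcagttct
Hdc: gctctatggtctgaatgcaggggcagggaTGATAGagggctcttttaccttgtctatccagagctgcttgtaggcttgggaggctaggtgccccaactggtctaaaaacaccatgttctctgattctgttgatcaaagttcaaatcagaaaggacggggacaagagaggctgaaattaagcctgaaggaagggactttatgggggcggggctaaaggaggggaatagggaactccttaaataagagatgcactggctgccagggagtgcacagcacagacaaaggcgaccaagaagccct

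Ms4a2 held 3 GATA words in its window, Fcer1a 1 and Hdc 1. Fcer1g held none, and among the other members only Mitf had a match, in 2 of its 3 windows. Such a word stood in 29.8% of 32851 windows of the same length over all genes, and at least 2 stood in 7.8%. The words CACGTG and CATGTG, forms of the E-box that MITF can bind, matched in the Fcer1a window alone among the members, and matched in 20.4% of all windows. A match is a description of letters and does not show binding.

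Tumours of lactating mice had lower signals for the alpha and beta chains of the IgE receptor, by 2.50-fold for Fcer1a and 2.32-fold for Ms4a2 after 16 was added to each signal, with no overlap between the groups. Kit and Gata2 were lower by 1.29-fold each, also without overlap. These values come from the probe set of highest mean, and the other probe set of Ms4a2, of Kit and of Gata2 had overlapping groups. Fcer1g, Kitl and Mitf had lower means with overlapping groups, and Hdc had a higher mean with overlapping groups. In all, 7 of the 8 members had a lower mean in lactation and 1 a higher mean. Of all 11623 tested genes, 6004 had a lower mean. Groups did not overlap for 4 of the 8, all lower in lactation, and this held for 3.19% of 11623 tested genes. No member was higher without overlap, which held for 3.71% of the tested genes. Since the members were chosen with these differences known, nothing is read from these comparisons.

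Differences are given on the scale of log2(signal + 16), lactation minus control, with the standard error of the difference between 3 and 3 arrays, and the added constant makes them understate the change of dim probe sets. The level filter asked that a gene reach the median signal of the array on 3 or more of the 6 arrays. Of the 8 members 7 passed, and Hdc did not. With limma, fitted over the 11623 genes that passed, 0% (0 genes) had a Benjamini-Hochberg adjusted p under 0.05, and 264 had an unadjusted p under 0.05, 89 lower (0.766%) and 175 higher (1.51%) in lactation.

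Fcer1a, the alpha chain that binds IgE, had 1 probe set (1421775_at). Its signals were 79.3, 95.4 and 54.55 in lactation replicates 1, 2 and 3, and 201.5, 358.7 and 127.1 in control replicates 1, 2 and 3. Every lactation array lay below every control array, and the controls were widely spread, with replicate 2 highest and replicate 3 nearest to the lactation values. The means were 76.4 ± 20.6 in lactation and 229 ± 118 in controls (SD, n = 3 each), which differ by -1.32 on the log2 scale (standard error 0.45). Leaving out control replicate 2 gave -0.96 and leaving out control replicate 3 gave -1.65. All 3 lactation signals lay under their array medians, so that only the 3 control arrays brought the gene past the filter.

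Ms4a2, the beta chain, was represented by probe set 1443264_at. Its signals were 28.5, 43.5 and 49.8 in lactation, against 132.0, 105.2 and 105.3 in controls. The lowest control was above the highest lactation value by more than the range of either group. The means were 40.6 ± 10.9 in lactation and 114.2 ± 15.5 in controls (SD, n = 3 each), which differ by -1.21 on the log2 scale (standard error 0.19). With an array left out it lay between -1.33 and -1.05. Here too only the control arrays reached their medians. A second probe set of Ms4a2 (1421475_at) measured 6.89, 53.4 and 16.9 in lactation and 52.7, 58.5 and 7.97 in controls, below the array median on all 6 arrays. Its groups overlapped, and its difference was -0.41 with a standard error of 0.71. The larger difference of Ms4a2 was thus seen with 1 of its probe sets.

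Fcer1g, the gamma chain shared with other Fc receptors, measured 4380, 5661 and 3290 in lactation and 5207, 5668 and 5388 in controls. The controls lay close together, whereas the lactation arrays spread widely, with replicate 2 at the control level and replicate 3 lowest. The difference was -0.32 with a standard error of 0.23, and it was -0.12 without lactation replicate 3 and -0.51 without lactation replicate 2. The 10 macrophage markers, cells in which the gamma chain is also expressed, had summed signals of 58730, 58600 and 42610 in lactation and 56890, 67440 and 65560 in controls. These sums overlapped, but all 10 markers had a lower mean in lactation, with a median difference of -0.26. Of all 11623 tested genes, 6004 had a lower mean. Among the 10, C1qb alone was lower without overlap, which held for 3.19% of the tested genes. Lactation replicate 3 was the lowest array for Fcer1g and for this sum, and the part of macrophages in the Fcer1g value was not tested. In RNA from whole tumours, fewer cells of a type and less RNA per cell cannot be told apart.

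**Figure D1:**
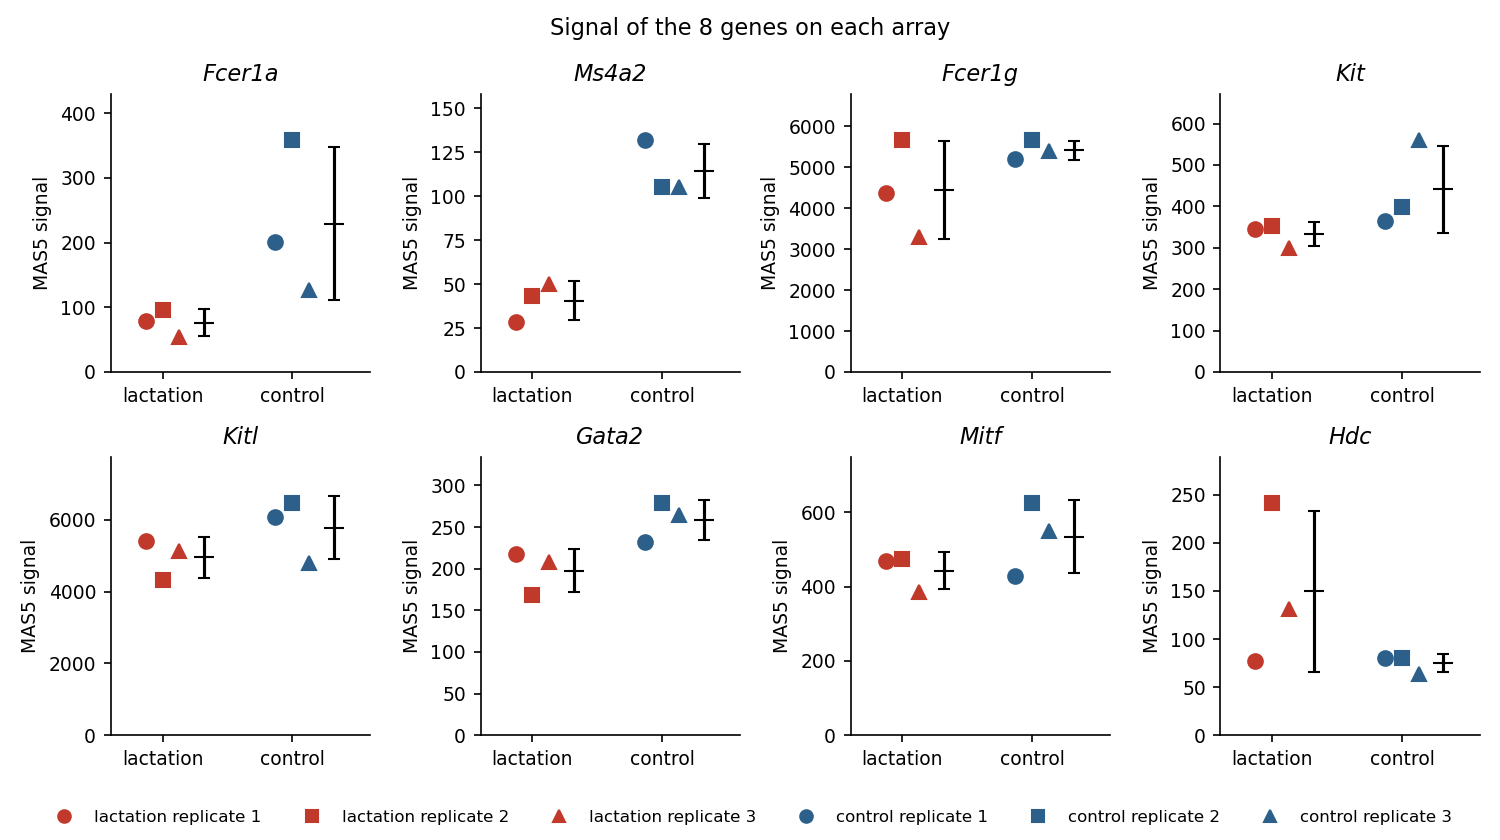
MAS5 signal (vertical axes, linear, starting at 0) of the probe set that represents each of the 8 genes on each array, lactation left of control; symbols mark the replicates and black bars the mean ± SD (n = 3 each). Lactation arrays lie below all control arrays for Fcer1a, Ms4a2, Kit and Gata2, and the groups overlap for Fcer1g, Kitl, Mitf and Hdc.

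Kit, the receptor for stem cell factor, was represented by probe set 1452514_a_at, above the array median on all 6 arrays. Its signals were 344.5, 353.6 and 299.4 in lactation, against 364.3, 397.8 and 560.6 in controls. The groups did not overlap, but the highest lactation array and the lowest control array differed by little, and control replicate 3 stood above the rest. The means were 332.5 ± 29.0 in lactation and 440.9 ± 105 in controls (SD, n = 3 each). The difference was -0.37 with a standard error of 0.20, and without control replicate 3 it was -0.19. The other probe set of Kit (1415900_a_at) lay below the median on all arrays, with 71.8, 41.9 and 39.0 in lactation and 67.5, 38.85 and 75.0 in controls, and its groups overlapped.

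Kitl, the ligand, was read by 4 probe sets, each above the array median on all arrays. The one of highest signal (1415855_at) measured 5401, 4322 and 5136 in lactation and 6092, 6465 and 4791 in controls. The groups overlapped through control replicate 3, and the difference was -0.22 with a standard error of 0.16. It was -0.12 without lactation replicate 2 and -0.35 without control replicate 3. The other probe sets had differences of -0.30 (1415854_at), -0.30 (1426152_a_at) and -0.20 (1448117_at), with standard errors from 0.14 to 0.20. All 4 were lowest on lactation replicate 2 and highest on control replicate 2. Only for 1426152_a_at did the groups not overlap, with 343.9, 282.4 and 356.4 in lactation and 381.2, 464.5 and 377.2 in controls. The 4 probe sets thus shared their lowest and highest arrays.

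Gata2, a transcription factor of blood progenitors, mast cells and endothelium, was represented by 1450333_a_at. Its signals were 217.1, 168.1 and 207.9 in lactation, against 231.7, 278.6 and 264.9 in controls. The groups stood apart by a small gap, and lactation replicate 2 was lowest. The means were 197.7 ± 26.1 in lactation and 258.4 ± 24.1 in controls (SD, n = 3 each). The difference was -0.36 with a standard error of 0.13, between -0.44 and -0.26 with an array left out. The other probe set (1428816_a_at) was below the median on all arrays and had a difference of -0.09 with a standard error of 0.16.

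Mitf, the basic helix-loop-helix factor of mast cells, melanocytes and osteoclasts, was represented by 1455214_at. It measured 468.0, 474.7 and 384.6 in lactation and 428.8, 624.1 and 548.4 in controls. Control replicate 1 lay within the lactation values, so the groups overlapped. The difference was -0.25 with a standard error of 0.18, and it was -0.13 when control replicate 2 was left out, and -0.40 when control replicate 1 was. The other probe set (1422025_at), below the median on all arrays, measured 45.35, 30.4 and 41.2 in lactation and 2.22, 46.2 and 61.25 in controls. Its difference of 0.30 had a standard error of 0.66 and rested on the single dim value of control replicate 1, without which it was -0.34.

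Hdc, which makes histamine, was the member with a higher mean in lactation. Its brighter probe set (1454713_s_at) measured 76.9, 241.1 and 131.5 in lactation and 80.3, 80.2 and 63.9 in controls. Lactation replicates 2 and 3 lay above all controls, and lactation replicate 1 lay among them. The difference was 0.75 with a standard error of 0.43, and it was 0.37 without lactation replicate 2 and 1.11 without lactation replicate 1. The dimmer probe set (1451796_s_at) measured 15.8, 63.5 and 41.4 in lactation and 13.98, 43.2 and 30.8 in controls, a difference of 0.27 with a standard error of 0.48. Both were highest on lactation replicate 2. Only 2 of the 6 arrays reached their median with the brighter probe set, so Hdc was not among the tested genes.

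**Figure D2:**
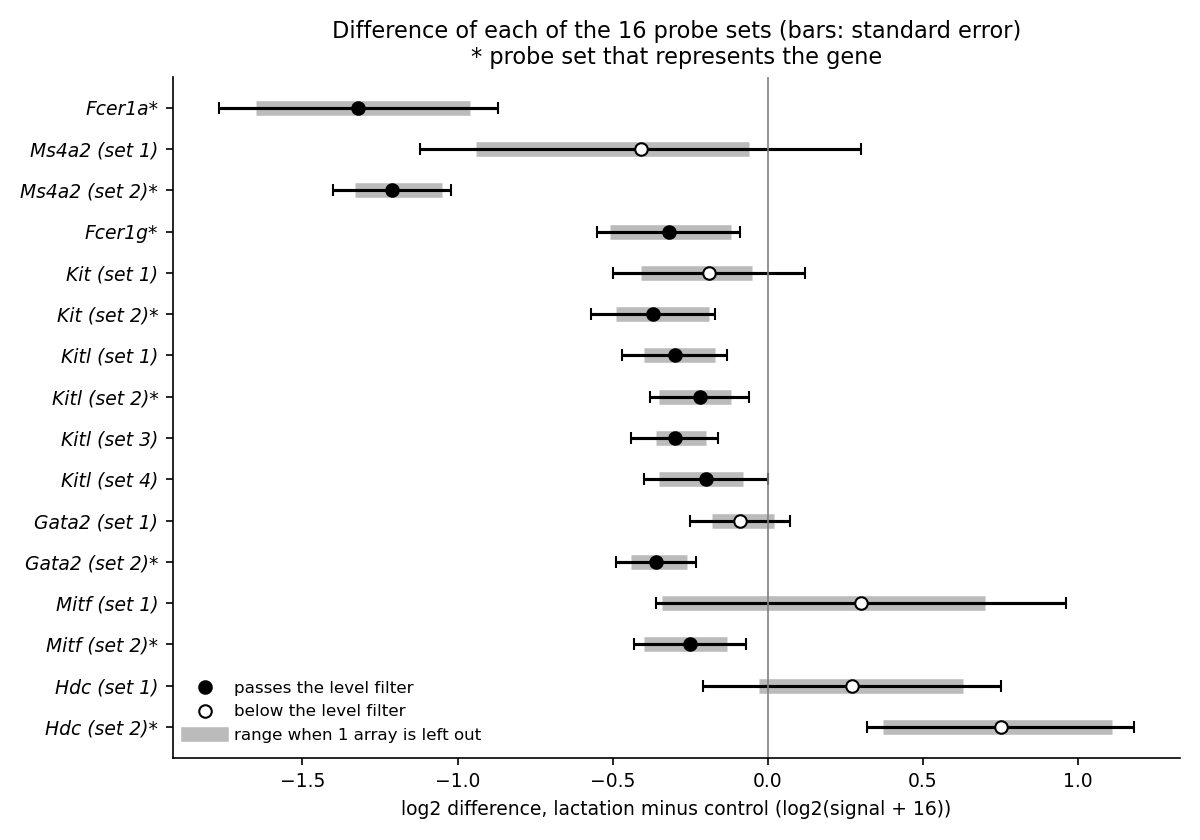
Log2 difference, lactation minus control (horizontal axis, log2(signal + 16)), of each of the 16 probe sets, with standard errors as thin bars and the range over leaving out each array as grey bands. The sets are numbered in order of probe set identifier; 13 lie below 0, and those of Fcer1a and the represented set of Ms4a2 lie farthest from it.

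Of the 16 probe sets, 13 had a lower mean in lactation and 3 a higher one, namely those of Hdc and the dim one of Mitf. 10 probe sets passed the level filter. Groups did not overlap for 5 of the 16, all lower in lactation, and this held for 3.63% of all 34958 single-gene probe sets, while 4.29% were higher without overlap. Nothing is read from the comparison, since the members were chosen on these differences. Among the 8 representing probe sets, control replicate 2 was the highest array for 5 and lactation replicate 3 the lowest for 4.

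The members differed in how they varied over the 6 arrays. Likeness was measured as the root mean square difference of 2 log2 profiles after each was centred on its 6-array mean, so that 0 is an identical profile. Fcer1a and Ms4a2 were 0.52 apart. Closer pairs were Kitl with Gata2 at 0.17, and Mitf with Fcer1g and with Gata2, each at 0.19, all of them genes that varied little. The distances of Hdc from the other members ran from 0.65 to 1.16, and the distances among the other 7 from 0.17 to 0.73. Fcer1a, Ms4a2 and Hdc had standard deviations over the arrays of 0.87, 0.70 and 0.63, and the other members from 0.22 to 0.31.

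For Fcer1a and Ms4a2, the members above the filter with a standard deviation of at least 0.5, the 3 tested genes of closest profile were taken as a description, with no test. Those of Fcer1a were Mcpt2, a mucosal mast cell protease, at 0.29, Tpsb2, a mast cell tryptase, at 0.34, and Cpa3, mast cell carboxypeptidase, at 0.35. The median over all tested genes was 0.81. Those of Ms4a2 were Atp6v0d2, a subunit of the proton pump of acidic vesicles, at 0.30, Il13ra2, a decoy receptor for interleukin 13, at 0.37, and Mycl, a transcription factor of the Myc family, at 0.37, where the median was 0.66. Fcer1a shared with its neighbours the peak on control replicate 2, whereas Ms4a2 was level on control replicates 2 and 3 and lowest on lactation replicate 1, as were its neighbours Atp6v0d2 and Mycl. Both members were chosen on their group difference, and only control arrays brought them past the filter. Nothing is therefore read from these distances.

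**Figure D3:**
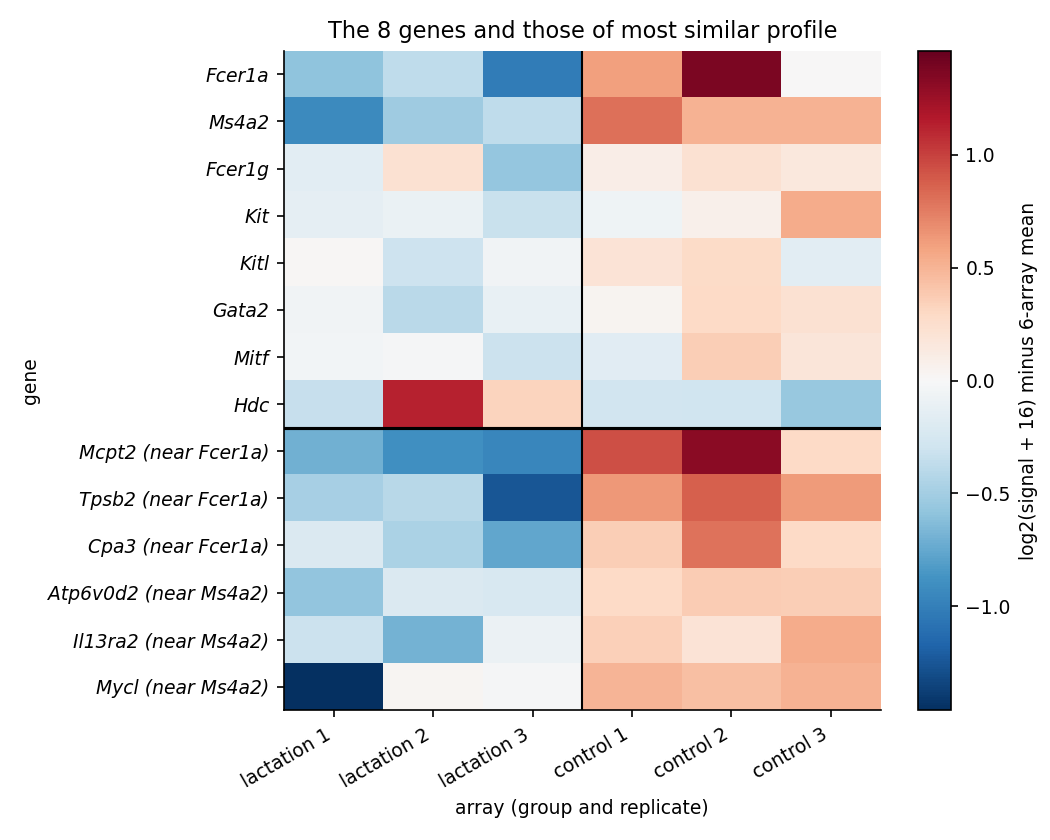
Centred log2(signal + 16) values (colour scale, red above and blue below a gene's 6-array mean) of the 8 genes and, under the black line, of the 3 genes with the profile closest to Fcer1a and to Ms4a2; columns are arrays, lactation left of control. Fcer1a and Ms4a2 are below their means on all lactation arrays, and Hdc is highest on lactation replicate 2.

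Other genes of mast cells gave the scale against which the members can be set. Of 11 mast cell protease and surface genes listed, 9 had a single-gene probe set. Their summed signals were 3201, 2884 and 2153 in lactation, against 7070, 8888 and 4893 in controls, without overlap. Mcpt2 made up 23.7% to 36.5% of the sum. On the lactation arrays 6 of the 9 reached the median on all 3 arrays and 7 on at least 1, while Tpsb2 and Mrgprb1 did so on control arrays alone. Cpa3 measured 600.5 ± 115 in lactation and 1186 ± 233 in controls, the chymase Cma1 306.5 ± 120 and 460 ± 195, the tryptase Tpsb2 67.5 ± 24.2 and 201.1 ± 22.05, and the tryptase Tpsab1 126.7 ± 19.5 and 168.4 ± 45.5 (SD, n = 3 each). Of 8 tested genes of this list, 0 passed the adjusted threshold in limma. An unadjusted p under 0.05 was reached by 5, all lower in lactation, which held for 0.766% of all tested genes. Among these 5, Tpsb2 passed the filter through control arrays alone, so nothing is read from this count. All 8 had a lower mean, with a median difference of -0.86, against -0.01 over all tested genes. Groups did not overlap for 4 of the 8, all lower in lactation, and this held for 3.19% of all tested genes. They overlapped for Cma1, Tpsab1, Mcpt4 and Cd200r1. This pattern was known when the members were chosen.

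Each member was then set against the mean log2 value of these 8 tested genes on its own array, a comparison chosen after the values were seen. The list mean stood at 8.33, 8.25 and 7.76 in lactation, against 9.03, 9.52 and 8.87 in controls. Relative to it, Fcer1a differed between the groups by -0.29 and Ms4a2 by -0.19, with overlapping groups, at -1.61 ± 0.15 in lactation and -1.32 ± 0.37 in controls for Fcer1a and -2.31 ± 0.57 and -2.12 ± 0.42 for Ms4a2 (SD, n = 3 each). The list mean itself differed by -1.03, beside -1.32 for Fcer1a and -1.21 for Ms4a2. The remaining members were higher relative to the list, by 0.71 for Fcer1g, 0.66 for Kit, 0.81 for Kitl, 0.66 for Gata2, 0.78 for Mitf and 1.78 for Hdc. Groups did not overlap on this relative scale for Fcer1g, Kitl, Gata2, Mitf and Hdc, and overlapped for Kit through control replicate 3. Because the list mean was itself lower in lactation, most genes are higher on this scale: of 11615 tested genes outside the list, 88.5% were higher in lactation without overlap and 0% lower. The separation of these 5 members is therefore no finding about them. Nor are the small relative differences of Fcer1a and Ms4a2, since these 2 genes and the list were known to be lower in lactation.

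**Figure D4:**
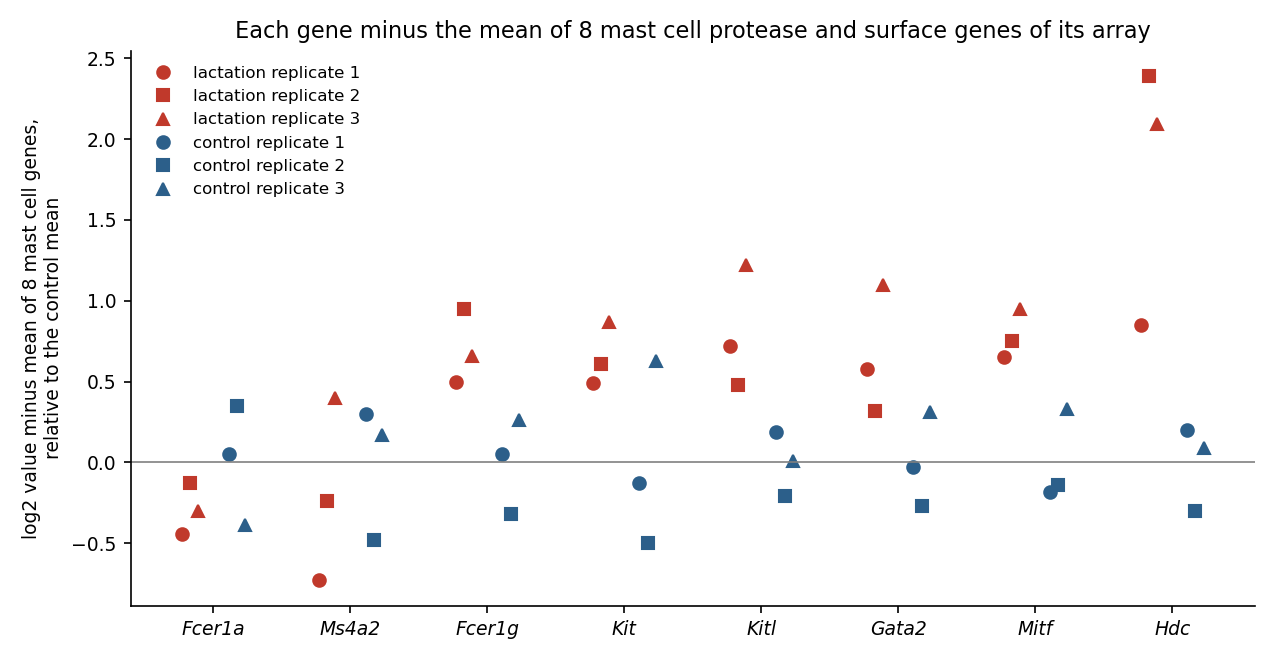
Log2 value of each gene minus the mean log2 value of 8 tested mast cell genes on the same array, drawn relative to the control mean of that gene (vertical axis, log2 units; 0 is the control mean), lactation left of control within each gene. The groups overlap for Fcer1a, Ms4a2 and Kit, and all lactation values of the 6 genes other than Fcer1a and Ms4a2 lie above 0; on this scale 88.5% of the tested genes outside the list were higher in lactation without overlap.

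Several members are also expressed by other cells, so the defining genes of those cells were read on the same arrays. Of 5 basophil genes with a probe set, the basophil protease Mcpt8 and the receptor-like gene Cd200r3 lay below the median on all 6 arrays, at 61.7 ± 9.69 and 9.86 ± 6.36 in lactation and 41.1 ± 14.4 and 28.0 ± 15.7 in controls. Itga2b reached the median on all 6 arrays and Il3ra on 3. The summed signal of the 5 genes was 3447 to 3983 in lactation and 2055 to 5993 in controls, but 74.7% to 91.6% of it was Ccl6, a chemokine that other myeloid cells also express. Of the 7 melanocyte genes, a cell type that also uses Kit and Mitf, the pigment genes Dct, Tyr, Tyrp1, Pmel and Mlana lay below the median on all arrays. Natural killer cell genes, 6 in number, summed to 829.9 to 1060 in lactation and 697 to 1115 in controls. Ncr1 and Klra8 lay below the median on all arrays, and Klrk1 reached it on all 6. Eomes, 29.4% to 53.4% of the sum, measured 425.6 ± 106 in lactation and 288.4 ± 41.1 in controls (SD, n = 3 each). It was higher without overlap, which held for 3.71% of the tested genes. Of the 6 genes, 4 had a higher mean in lactation and 2 a lower one. The melanocyte list summed to 594.1 to 783.2 in lactation and 543.9 to 792.9 in controls, and 56.8% to 77.2% of that was the endothelin receptor gene Ednrb, which is not particular to melanocytes.

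Neutrophils and immature myeloid cells can express Hdc. The summed signal of 8 neutrophil genes was 8674, 5513 and 5570 in lactation and 6314, 4013 and 4657 in controls, with overlap, and the mean log2 difference of the sums was 0.39. The neutrophil sum was highest on lactation replicate 1, where Hdc was among the control values, and Hdc was highest on lactation replicate 2. S100a8, a calcium-binding protein abundant in neutrophils, measured 3378 ± 1060 in lactation and 2368 ± 542 in controls, S100a9, its partner, 1783 ± 591 and 1350 ± 460, and Csf3r, the receptor for granulocyte colony-stimulating factor, 629.5 ± 39.1 and 525.1 ± 31.9 (SD, n = 3 each). The chemokine receptor gene Cxcr2 went the other way, with 95.35 ± 39.9 in lactation and 126.4 ± 32.02 in controls (SD, n = 3 each). Among the 5 tested neutrophil genes only Csf3r had groups without overlap, higher in lactation, which held for 3.71% of all tested genes. Camp, below the filter, was lower without overlap, which held for 3.63% of all single-gene probe sets. Of the 8 genes, 5 had a higher mean log2 value in lactation and 3 a lower one, and S100a8 made up 43.2% to 53.1% of the sum. Mmp8, Camp and Ngp, stored in neutrophil granules, lay below the median on all arrays. The part of neutrophils in the Hdc value was not tested.

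Kitl, Gata2 and Kit are expressed outside the mast cell lineage as well. The summed endothelial genes were 2582 to 2855 in lactation and 2426 to 3702 in controls, the fibroblast genes 72930 to 82410 and 69550 to 100600, and the genes of epithelial tumour cells 71280 to 97010 and 66510 to 83530, all with overlap. Of 7 endothelial genes, 6 had a lower mean in lactation and 1 a higher one, and likewise for 7 fibroblast genes. All 7 epithelial genes had a higher mean. Over all tested genes 6004 had a lower mean and 5619 a higher one. Haematopoietic progenitor genes summed to 1334 to 1655 and 1204 to 2127, with Mpo, Elane, Prtn3 and Gfi1b below the median on all arrays and 85.2% to 94.3% of the sum from Cd34, which endothelium also expresses. Kitl was lowest on lactation replicate 2 and highest on control replicate 2. These arrays had the lowest sum of epithelial genes in their groups, 71280 and 66510, and the part of these cells in the Kitl value was not tested.

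**Figure D5:**
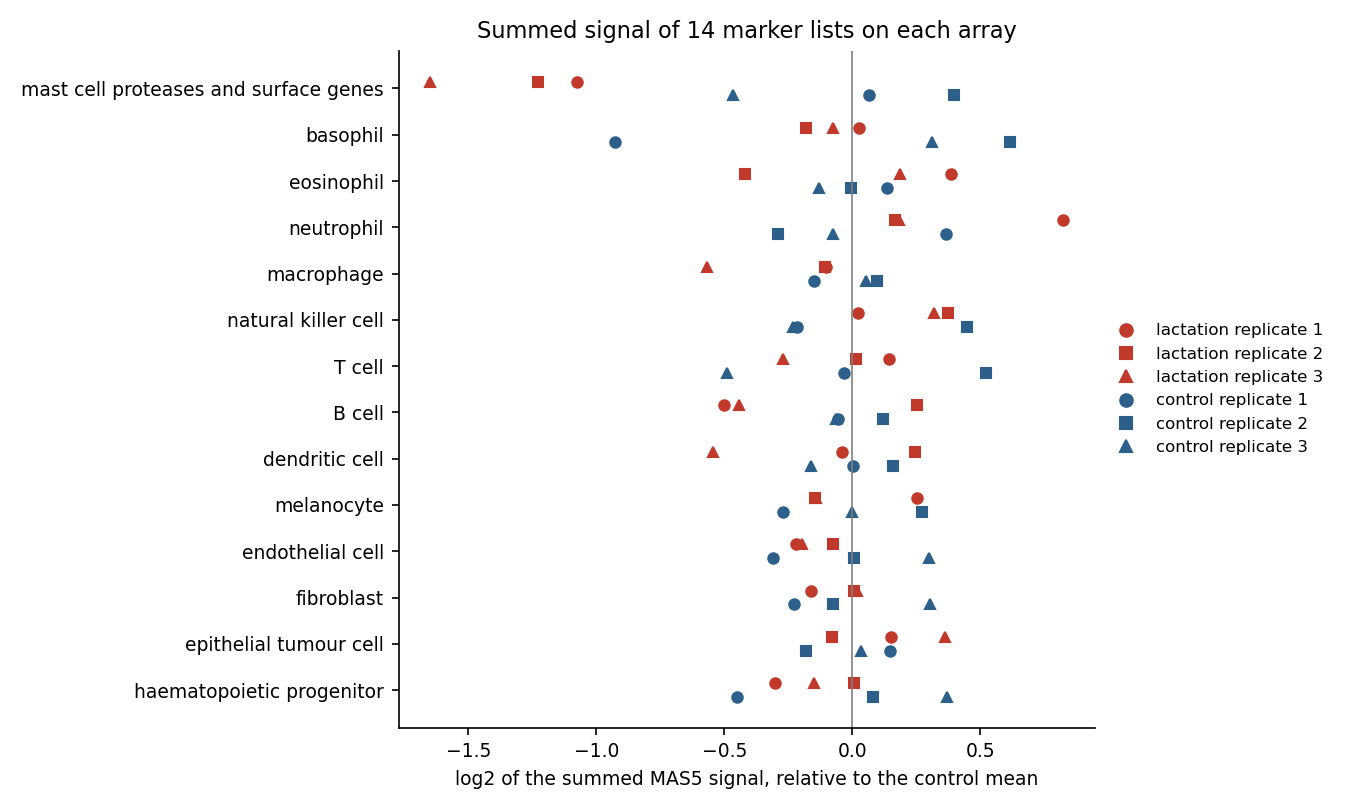
Log2 of the summed MAS5 signal of each of 14 marker lists on each array, relative to the control mean of the list (horizontal axis), lactation drawn above control within each row. The groups stand apart for the mast cell genes and overlap for the other 13 lists.

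Pathways and gene groups related to the members were read from fixed lists, and no gene of them passed the adjusted threshold in either direction. Over the 5 pathway lists 87 of 110 genes were tested with limma, 0 passed, 1 was lower and 1 higher at an unadjusted p under 0.05, and the median difference was -0.08. Of 21 tested genes of IgE receptor signalling, 17 had a lower mean and 4 a higher one, with differences from -0.35 to 0.28 and a median of -0.14. Means were lower for 6004 and higher for 5619 of all 11623 tested genes. The kinase Syk, which docks on the gamma chain, measured 408.2 ± 89.6 in lactation and 439.2 ± 102 in controls. The adaptor Lat measured 321.5 ± 38.6 and 360.8 ± 36.2, the adaptor Lcp2 742.7 ± 169 and 827.1 ± 128, and the kinase Fyn 385.1 ± 22.8 and 440.8 ± 136 (SD, n = 3 each). The groups overlapped for all 21.

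Of 22 tested genes of KIT signalling, 15 had a lower mean and 7 a higher one, with a median of -0.05. The phosphatase Ptpn6, which restrains KIT, had a difference of -0.12, the transcription factors Stat5a and Stat5b -0.08 and -0.06, and the inhibitor Spred1 -0.13, each with overlapping groups. Pik3r1, the regulatory subunit of phosphoinositide 3-kinase, was the gene of this list with an unadjusted p under 0.05, named after its values were seen. It measured 1606, 2002 and 1946 in lactation and 2600, 2505 and 2364 in controls, a difference of -0.43, and limma's adjusted p was 1.

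Of 19 tested genes of the list of mast cell lineage regulators, 9 had a lower mean and 10 a higher one, with a median of 0.01. Tal1 had a difference of -0.23, Spi1 of -0.27, Runx1 of -0.19 and Lmo2 of -0.21, all blood transcription factors with overlapping groups. Id2, an inhibitor of helix-loop-helix factors named after its values were seen, measured 4493, 4730 and 5402 in lactation and 4311, 3515 and 2911 in controls, a difference of 0.46 with an adjusted p of 1 in limma. Id2 was higher without overlap, which held for 3.71% of the tested genes. Gata1, below the filter and also named after its values were seen, measured 60.6, 56.15 and 58.6 in lactation and 67.2, 79.8 and 78.6 in controls, without overlap and with a difference of -0.29. With no filter, 3.63% of all single-gene probe sets were lower without overlap.

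Of 12 tested genes of histamine and lipid mediators, 6 had a lower mean and 6 a higher one, with a median of -0.04. Hpgds, the prostaglandin D synthase of mast cells and some macrophages, measured 333.2, 232.4 and 137.0 in lactation and 327.7, 279.7 and 315.1 in controls. Lactation replicate 3 was low and the groups overlapped. The leukotriene C4 synthase gene Ltc4s measured 268.1 ± 52.8 in lactation and 266.4 ± 42.8 in controls, the granule proteoglycan Srgn 6459 ± 662 and 7097 ± 1030, and Hnmt, which inactivates histamine, 148.6 ± 54.8 and 168.1 ± 15.1 (SD, n = 3 each). Slc18a2, the vesicular transporter that loads histamine into granules, lay below the median on all arrays, with 45.3, 46.1 and 43.9 in lactation and 74.4, 96.3 and 35.3 in controls, and was named after its values were seen.

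Of 13 tested genes of a list of Fc receptors, related receptors and signalling adaptors, 12 had a lower mean and 1 a higher one. The median was -0.14, and groups overlapped for all 13. Of all 11623 tested genes, 6004 had a lower mean, and so had all 10 macrophage markers. Not all of these genes use the gamma chain. The IgG receptor Fcgr3, which needs the gamma chain for its surface expression, measured 3310, 3459 and 2337 in lactation and 2995, 4222 and 4040 in controls. Like Fcer1g it was lowest on lactation replicate 3 and highest on control replicate 2. Differences were -0.31 for Fcgr3, -0.07 for Fcgr1, -0.06 for Fcgr4 and -0.23 for Fcgr2b, the inhibitory IgG receptor that does not use the gamma chain.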

How the data were processed

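Total RNA of 6 tumours, 3 per group, was labelled with biotin as cRNA for Affymetrix arrays, per the labels' protocols. The deposited intensity values are linear MAS5 signals for 45101 probe sets per array, per the submitters' processing notes, which name no version. With the outer 2% of values removed at either end, all 6 arrays had a mean of 500.0, so they had been scaled before deposit. Scanner files were not used here.

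Gene names came from the platform annotation. Entrez identifiers matched 34754 of 34958 single-gene probe sets and all 8 members to a RefSeq gene table (GRCm38.p6), and 0 symbols changed. 932 probe sets with several symbols and 9211 with none were left out. Values were log2(signal + 16), the probe set of highest mean stood for a gene, and 11623 of 18194 genes passed the level filter. The groups were compared across these genes with limma 3.58.1 (R 4.3.3; lmFit and eBayes, intensity trend, Benjamini-Hochberg threshold 0.05), and the fit was tested on simulated data. Figures and promoter counts used Python 3.11.15, pandas 2.3.3 and matplotlib 3.10.9.

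The members and lists were chosen with earlier results of these data known. Named genes were the members, the leading 4 genes of each list in a set order (of the marker lists, a part is printed), any gene past the threshold and the 3 genes of closest profile. Of 214 listed genes, 18 were not analysed here. The alternatives tried were other added constants, normalizations, filters, probe set rules and limma settings, a block for replicate number, and the omission of each array.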

Additional observations from a re-analysis of the deposited data

How the results depend on the processing

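In each of the 18 alternatives run, 0 genes passed an adjusted p under 0.05 in limma, over all tested genes and over the genes of the fixed lists, of which 153 were tested in the reported fit. Unadjusted p values under 0.05 numbered 264 in the reported fit, 577 with no filter, 184 with a filter at the 70th percentile, 381 with array weights and 289 with the replicate block. With an array left out they ran from 137 without lactation replicate 3 to 652 without control replicate 1. Centring arrays on their medians turned the split of such genes from 175 higher and 89 lower into 109 higher and 125 lower.

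Of the 8 members, 7 kept their direction in all 12 alternatives that could change their values. The difference of Mitf, -0.25, became 0.02 when its probe sets were averaged. That of Ms4a2, -1.21, was -1.50 with an added constant of 1, -0.77 with one of 64 and -0.81 when its probe sets were averaged. All other values moved by less than the spread between replicates. The replicate block cannot change a difference of means in this balanced design, and with it 0 genes passed. Deviations from group means of same-numbered arrays correlated at 0.143, -0.083 and 0.267, and lactation replicates 1 and 2 correlated best with a control of another number. Dim probe sets, among them both of Hdc and the lactation values of Fcer1a and Ms4a2, limit what the signals can show.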
